A study of Danio rerio with 18 samples.

Results

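The hox and dlx genes are homeobox transcription factors that give cells positional identity. They were taken here as every gene whose symbol on the array begins with hox, a cluster letter (a to d) and a number, or with dlx and a number. This gave 50 genes, 42 hox and 8 dlx, of the 8793 genes named by probe sets with 1 symbol. They are measured by 67 probe sets, and each gene was read from the probe set with its highest mean over the 18 arrays. RNA came from regenerating caudal fins of adult male zebrafish (Danio rerio) of the AB strain. All fish had the tail fin cut where the rays branch, and all were injected with phosphatidylcholine liposomes. The liposomes carried TCDD (a chlorinated dioxin that binds the aryl hydrocarbon receptor) at 50 ng per g of fish in the TCDD groups, and nothing in the vehicle groups. The regenerating ends were cut off 1, 3 or 5 days after amputation (dpa, days post amputation), giving 6 groups of 3 arrays: TCDD at 1, 3 and 5 dpa, and vehicle at the same days. Each array holds tissue pooled from 10 fish, so the spread between arrays is that between pools. The collected piece reaches up to 2 ray segments into the stump, and so holds stump as well as new tissue.

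In vertebrates the hox genes lie in clusters, and their order along a cluster follows the order in which they are used along the body, from paralogue group 1 (anterior) to group 13 (posterior). In fins and limbs the posterior groups 9 to 13 pattern the appendage from base to tip, and in zebrafish some group 13 genes are needed to form rays in the paired fins. The dlx genes, the vertebrate counterparts of the fly gene Distal-less, lie as neighbouring pairs that share enhancers. In mouse, Dlx5 and Dlx6 act in the ridge of epithelium at the limb tip and in bone-forming cells.

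Levels are given as log2(intensity + 1), the intensity being the deposited linear value, and all differences are on that scale. Brightness depends on the probes as well as on the transcript, so a difference in level between genes is not read as a difference in transcript. The counts of expressed genes use 1 cut for all genes, and so also depend on the probes. A difference is called when limma's adjusted p, over all 15502 probe sets that are not controls, was under 0.05. In tissue of this kind, fewer cells of a type and less RNA per cell cannot be told apart. Each array also carries a replicate letter, A to E. The 7 pairs of TCDD and vehicle arrays that share a day and a letter deviated together. The blocked value, fitted with the letter as a further term, is therefore given where it changes a call. That term takes a letter's effect to be the same on every day, which was not tested. Blocked values rest on this wherever the groups compared hold different letters. In vehicle fish the arrays at 1 dpa share only letter B with those at later days. Letter E is on 1 array, which therefore adds nothing to a blocked difference.

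Of the 50 genes, 20 had a mean level of 5 or more over the 18 arrays and are called expressed. They were all 8 dlx genes and 12 of the 42 hox genes (28.6%), whereas 72.6% of all named genes on the array reached that level. The expressed hox genes lay mostly at the posterior end of the series: 10 of 17 in paralogue groups 9 to 13, 1 of 12 in groups 5 to 8, and 1 of 13 in groups 1 to 4. By cluster, 4 of 5 measured genes of the hoxab cluster were expressed, 2 of 6 of the hoxaa cluster, 1 of 10 of the hoxba cluster, 4 of 9 of the hoxca cluster and 1 of 3 of the hoxcb cluster. None of the 3 genes of the hoxbb cluster and none of the 6 of the hoxda cluster reached a mean of 5. The genes nearest the threshold were hoxc8a (5.34) and hoxc11b (5.14) inside, and hoxc3a (4.95) and hoxa11a (4.79) outside.

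**Figure D1:**
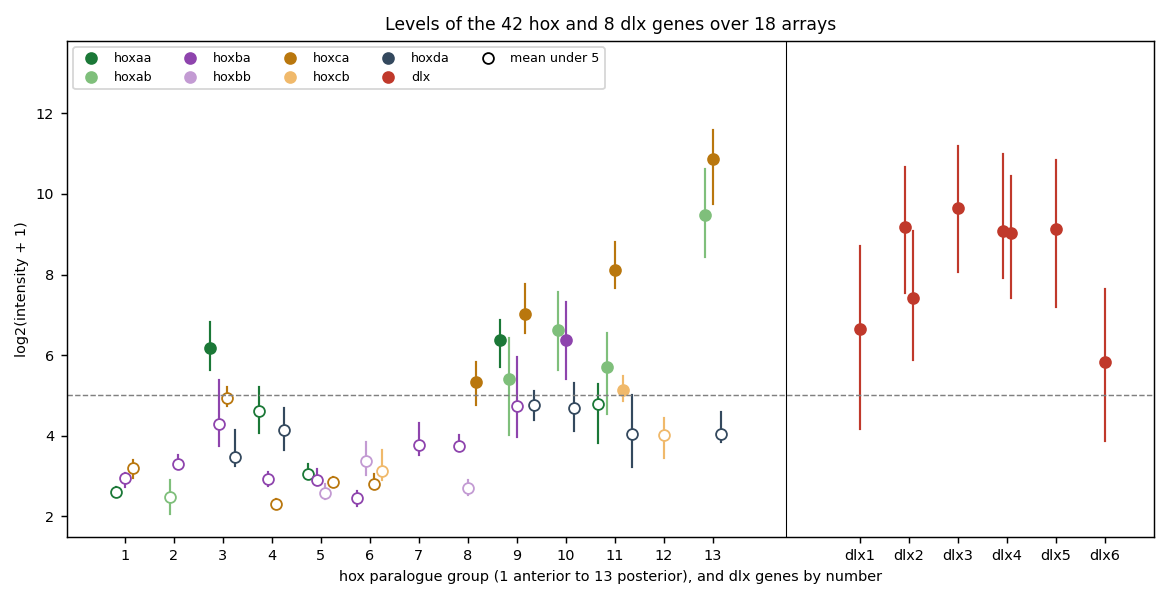
Mean level (points) and range over the 18 arrays (lines), as log2(intensity + 1), of 42 hox genes by paralogue group and cluster and of 8 dlx genes by number; open points have a mean under 5 (dashed line). Filled points among the hox genes lie mostly at groups 9 to 13, with hoxc13a at 10.87 and hoxa13b at 9.47, and all 8 dlx points are filled.

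The mean levels of the expressed posterior hox genes were 10.87 for hoxc13a, 9.47 for hoxa13b, 8.12 for hoxc11a, 7.03 for hoxc9a, 6.63 for hoxa10b, 6.38 for hoxa9a, 6.37 for hoxb10a, 5.70 for hoxa11b, 5.42 for hoxa9b and 5.14 for hoxc11b. The remaining pair were hoxa3a, of an anterior group, at 6.17 and hoxc8a at 5.34. The dlx means were 9.66 for dlx3b, 9.19 for dlx2a, 9.13 for dlx5a, 9.09 for dlx4a, 9.03 for dlx4b, 7.42 for dlx2b, 6.66 for dlx1a and 5.84 for dlx6a. Group means of dlx1a, dlx6a, hoxa11b and hoxa9b fell under 5 in at least 1 group. For dlx1a and hoxa11b that was the TCDD group at 1 dpa, and for dlx6a and hoxa9b it was both groups at 1 dpa.

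The 30 dim hox genes had means between 2.32 and 4.95. In groups 9 to 13 they were hoxa11a, hoxb9a, hoxc12b, hoxd9a, hoxd10a, hoxd11a and hoxd13a, with means of 4.03 to 4.79. In groups 5 to 8 they were hoxa5a, hoxb5a, hoxb5b, hoxb6a, hoxb6b, hoxb7a, hoxb8a, hoxb8b, hoxc5a, hoxc6a and hoxc6b. In groups 1 to 4 they were hoxa1a, hoxa2b, hoxa4a, hoxb1a, hoxb2a, hoxb3a, hoxb4a, hoxc1a, hoxc3a, hoxc4a, hoxd3a and hoxd4a. A mean under 5 bounds what these probes detected and does not show that the transcript was missing: 13 of the 50 genes have several probe sets, and these could differ widely. A second set for hoxa10b had a mean of 2.74 and other sets for hoxb10a had 5.06 and 2.76, against the 6.63 and 6.37 used. In 8 cases set names differ in A1 or S1, for hoxb8a also in a suffix. The A1 set was dimmer in all 8, by 0.09 (hoxb8b, both sets dim) to 3.89. Of the 12 expressed hox genes, 5 (hoxc13a, hoxc11a, hoxa9a, hoxb10a and hoxc8a) are read from A1 sets whose names have no S1 counterpart among the 67.

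The dlx genes other than dlx3b rose early in regeneration. In TCDD fish at 3 against 1 dpa, 7 of the 8 were called higher (dlx1a, dlx2a, dlx2b, dlx4a, dlx4b, dlx5a and dlx6a), and in vehicle fish the same 7 were. With 7 hox genes, 14 of the 50 were called higher in TCDD fish and none lower, against 5.42% of all named genes called higher in that comparison. That count was 9 without the TCDD array of letter B at 1 dpa, and 9 when only the groups compared entered the fit. In vehicle fish, with 5 hox genes, 12 of the 50 were called higher and none lower; 3.99% of all named genes were called higher, and 4.98% of those with a mean of 5 or more. Without the vehicle array of letter A at 3 dpa the count was 7. It was also 7 without both letter C arrays at 3 dpa, and 3 with only the groups compared. Among the dlx calls in vehicle fish, those of dlx4a, dlx5a and dlx6a were lost without the letter C arrays. With only the groups compared, those of dlx2a and dlx2b were lost as well (adjusted p of the lost dlx calls 0.0682 to 0.143). Those 2 letter C arrays had the widest gap between the 3′ and 5′ control probe sets for GAPDH, which reflects RNA integrity, at 4.06 (TCDD) and 3.38 (vehicle) on the log2 scale. The other 16 arrays lay between 1.38 and 3.03, the highest of them being both letter B arrays at 1 dpa, at 2.95 (TCDD) and 3.03 (vehicle).

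dlx1a, which lies next to dlx2a, had the largest change with day of the 50 genes in vehicle fish. In TCDD fish it stood at 5.34, 5.24 and 4.16 at 1 dpa, at 6.93, 6.67 and 6.69 at 3 dpa, and at 6.93, 6.43 and 7.24 at 5 dpa. In vehicle fish dlx1a stood at 5.30, 4.71 and 5.91 at 1 dpa, at 8.08, 7.39 and 7.72 at 3 dpa, and at 8.44, 8.0 and 8.70 at 5 dpa. In neither treatment did the later days overlap 1 dpa. At 5 against 1 dpa the difference was 1.95 ± 0.34 (SE, n = 3 arrays a group; 3.87-fold; adjusted p = 0.00118) in TCDD fish and 3.07 ± 0.34 (8.40-fold; adjusted p = 5.63e-05) in vehicle fish.

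Its neighbour dlx2a stood at 7.82, 7.78 and 7.87 at 1 dpa, at 9.63, 9.50 and 9.85 at 3 dpa, and at 9.56, 10.22 and 10.67 at 5 dpa in TCDD fish. In vehicle fish dlx2a stood at 7.54, 8.50 and 8.56 at 1 dpa, at 9.50, 9.65 and 9.77 at 3 dpa, and at 9.52, 9.78 and 9.66 at 5 dpa. Every array at 3 or 5 dpa was above every array at 1 dpa. The difference at 5 against 1 dpa was 2.33 ± 0.26 (5.03-fold; adjusted p = 5.48e-05) in TCDD fish and 1.46 ± 0.26 (2.75-fold; adjusted p = 0.00144) in vehicle fish.

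The dlx5a and dlx6a pair, whose mouse counterparts act in limb epithelium and bone, rose as well. dlx5a stood at 8.28, 7.35 and 7.53 at 1 dpa, at 10.02, 9.38 and 9.80 at 3 dpa, and at 9.80, 9.65 and 10.83 at 5 dpa in TCDD fish. In vehicle fish dlx5a stood at 7.19, 8.42 and 8.76 at 1 dpa, at 9.80, 9.66 and 9.69 at 3 dpa, and at 9.34, 9.52 and 9.32 at 5 dpa. The 5 against 1 dpa differences were 2.38 ± 0.37 (adjusted p = 0.000478) in TCDD fish and 1.27 ± 0.37 (adjusted p = 0.0271) in vehicle fish. The vehicle value was not called without the vehicle array of letter B at 1 dpa, or without any 1 of the vehicle arrays at 5 dpa (adjusted p up to 0.103), while the 3 against 1 dpa call in vehicle fish, 1.59 ± 0.37, was lost without letter B at 1 dpa or letter A or C at 3 dpa (up to 0.0709).

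dlx6a was dim at 1 dpa and brighter later. It stood at 4.90, 4.91 and 3.86 at 1 dpa, at 6.24, 6.28 and 6.26 at 3 dpa, and at 6.19, 6.75 and 7.65 at 5 dpa in TCDD fish. In vehicle fish dlx6a stood at 4.40, 3.90 and 5.22 at 1 dpa, at 6.55, 6.17 and 6.50 at 3 dpa, and at 6.30, 6.76 and 6.23 at 5 dpa. By 5 dpa it was higher than at 1 dpa by 2.30 ± 0.38 (4.94-fold; adjusted p = 0.000694) in TCDD fish and by 1.93 ± 0.38 (3.80-fold; adjusted p = 0.00254) in vehicle fish.

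The duplicate copies dlx2b and dlx4a lie apart from the dlx pairs. dlx2b stood at 6.60, 5.98 and 6.20 at 1 dpa, at 8.10, 7.88 and 8.34 at 3 dpa, and at 8.12, 8.30 and 9.09 at 5 dpa in TCDD fish. In vehicle fish dlx2b stood at 6.64, 6.33 and 5.88 at 1 dpa, at 7.64, 7.45 and 7.80 at 3 dpa, and at 7.47, 7.79 and 7.95 at 5 dpa. Its rise at 5 against 1 dpa was 2.24 ± 0.26 (adjusted p = 6.84e-05) in TCDD fish and 1.45 ± 0.26 (adjusted p = 0.00136) in vehicle fish.

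dlx4a followed with a wider spread at 5 dpa. It stood at 8.13, 7.90 and 8.02 at 1 dpa, at 10.02, 9.59 and 9.68 at 3 dpa, and at 9.0, 9.64 and 11 at 5 dpa in TCDD fish. In vehicle fish dlx4a stood at 8.16, 8.43 and 8.03 at 1 dpa, at 9.60, 9.96 and 9.11 at 3 dpa, and at 9.02, 9.54 and 8.82 at 5 dpa. At 3 against 1 dpa the difference was 1.74 ± 0.37 (adjusted p = 0.00682) in TCDD fish and 1.35 ± 0.37 (adjusted p = 0.0455) in vehicle fish. The vehicle call held only when the TCDD array of letter A or D at 5 dpa was the one left out, and was lost without any 1 of the other 16 arrays (adjusted p up to 0.153). At 5 against 1 dpa in vehicle fish dlx4a differed by 0.92 (adjusted p = 0.108), and by 1.38 in the blocked fit (adjusted p = 0.0353).

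dlx3b and dlx4b, which act in zebrafish in the ear and nose placodes, lie side by side. dlx3b stood at 9.40, 9.21 and 10.32 at 1 dpa, at 10.43, 10.10 and 8.69 at 3 dpa, and at 9.91, 10.35 and 11.19 at 5 dpa in TCDD fish. In vehicle fish dlx3b stood at 8.06, 9.79 and 9.44 at 1 dpa, at 9.50, 9.97 and 8.33 at 3 dpa, and at 9.62, 9.66 and 9.85 at 5 dpa. It was the dlx gene with the widest error, 0.54, and both letter C arrays at 3 dpa were the lowest of their groups. No comparison of days was called for it, except that vehicle 5 against 1 dpa was 0.61 (adjusted p = 0.494) without and 1.71 (adjusted p = 0.0157) in the blocked fit.

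**Figure D2:**
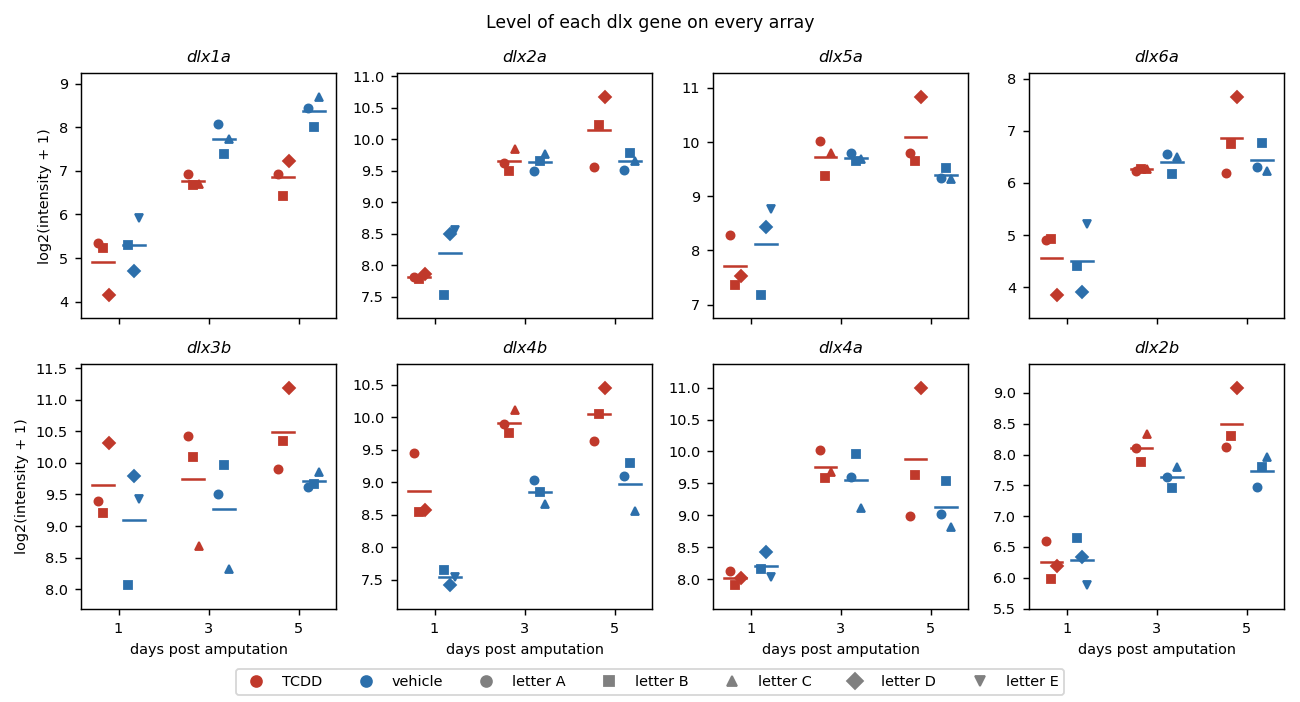
Level of each dlx gene, log2(intensity + 1), on every array at 1, 3 and 5 dpa, with TCDD (red) left of vehicle (blue); marker shapes give the replicate letter and bars the group mean. For 7 genes the arrays at 3 dpa lie above those at 1 dpa in both treatments, dlx3b being the exception, and the TCDD arrays lie above the vehicle arrays for dlx4b and below them at 3 and 5 dpa for dlx1a.

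Of the 12 expressed hox genes, 4 were called higher at 3 against 1 dpa in TCDD fish and 5 in vehicle fish. Of all genes with a mean of 5 or more, 7.19% (TCDD fish) and 4.98% (vehicle fish) were called higher. The shares of all named genes were 5.42% and 3.99%. Among all hox genes in TCDD fish 7 of 42 were called higher at 3 against 1 dpa: hoxa11b, hoxa10b, hoxa9b and hoxb10a of groups 9 to 13, with the dim hoxb9a, hoxa4a and hoxb3a. In vehicle fish 5 of 42 were called higher, all of them expressed and in groups 9 to 13: hoxc13a, hoxa11b, hoxa10b, hoxa9b and hoxb10a. Of these, hoxa11b, hoxa10b and hoxa9b are neighbours in the hoxab cluster.

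hoxa10b, in the middle of its cluster, stood at 5.91, 5.87 and 5.94 at 1 dpa, at 6.68, 6.94 and 6.94 at 3 dpa, and at 6.40, 6.86 and 7.17 at 5 dpa in TCDD fish. In vehicle fish hoxa10b stood at 5.64, 5.84 and 6.09 at 1 dpa, at 7.57, 7.25 and 7.0 at 3 dpa, and at 6.95, 7.09 and 7.22 at 5 dpa. At 3 against 1 dpa the difference was 0.95 ± 0.20 (1.93-fold; adjusted p = 0.00635) in TCDD fish and 1.42 ± 0.20 (2.67-fold; adjusted p = 0.000671) in vehicle fish. Its second, dim probe set did not follow, with -0.01 in TCDD fish and 0.00 in vehicle fish.

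hoxa9b, the next gene of the cluster, had the largest rise of the hox genes at 3 against 1 dpa in vehicle fish. It stood at 4.02, 4.45 and 4.5 at 1 dpa, at 5.58, 5.52 and 5.70 at 3 dpa, and at 5.00, 5.75 and 6.35 at 5 dpa in TCDD fish. In vehicle fish hoxa9b stood at 4.62, 4.65 and 4.74 at 1 dpa, at 5.63, 6.40 and 6.35 at 3 dpa, and at 5.86, 5.93 and 6.42 at 5 dpa. At 3 against 1 dpa it was higher by 1.28 ± 0.29 (2.42-fold; adjusted p = 0.00953) in TCDD fish and by 1.46 ± 0.29 (2.74-fold; adjusted p = 0.00777) in vehicle fish. The vehicle call was lost when only the groups compared were fitted (adjusted p = 0.0541) and without both letter C arrays at 3 dpa (0.0599).

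hoxb10a belongs to the same paralogue group as hoxa10b but to another cluster. It stood at 5.68, 5.45 and 5.41 at 1 dpa, at 6.66, 6.18 and 6.36 at 3 dpa, and at 6.51, 6.24 and 6.71 at 5 dpa in TCDD fish. In vehicle fish hoxb10a stood at 6.0, 5.48 and 5.87 at 1 dpa, at 7.18, 6.31 and 7.19 at 3 dpa, and at 7.32, 6.83 and 7.31 at 5 dpa. Its rise at 5 against 1 dpa was 0.97 ± 0.24 (adjusted p = 0.0114) in TCDD fish and 1.37 ± 0.24 (adjusted p = 0.00131) in vehicle fish. The TCDD call was lost without the TCDD array of letter D at 5 dpa (adjusted p = 0.0555), and the TCDD call at 3 against 1 dpa, 0.89, was lost without TCDD B or D at 1 dpa or A or C at 3 dpa (up to 0.112). The vehicle call at 3 against 1 dpa, 1.11, was lost in the blocked fit (0.91, adjusted p = 0.0622), and without vehicle D at 1 dpa or A or C at 3 dpa (up to 0.0846). Its second probe set, with a mean of 5.06, gave 0.27 (adjusted p = 0.363) in TCDD fish and 0.77 (adjusted p = 0.0162) in vehicle fish at 5 against 1 dpa.

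hoxc13a, whose mouse counterpart acts in hair and nail, stood at 10.68, 10.66 and 10.56 at 1 dpa, at 11.45, 11.24 and 10.93 at 3 dpa, and at 11.12, 11.50 and 11.59 at 5 dpa in TCDD fish. In vehicle fish hoxc13a stood at 9.74, 9.84 and 10.23 at 1 dpa, at 11.01, 10.87 and 10.62 at 3 dpa, and at 11.58, 11.30 and 10.79 at 5 dpa. At 1 dpa the TCDD arrays all lay above the vehicle arrays, and at 3 and 5 dpa the treatments overlapped. At 5 against 1 dpa it rose by 0.77 ± 0.20 (1.71-fold; adjusted p = 0.0136) in TCDD fish and by 1.29 ± 0.20 (2.44-fold; adjusted p = 0.000493) in vehicle fish. The TCDD call was lost without the TCDD array of letter D at 5 dpa (adjusted p = 0.0650). At 3 against 1 dpa the TCDD difference was 0.57 (adjusted p = 0.0811), or 0.75 in the blocked fit (adjusted p = 0.00402). The vehicle difference was 0.90 (adjusted p = 0.0155), and it was not called without the vehicle array of letter D at 1 dpa or letter A at 3 dpa (up to 0.0655).

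Between 3 and 5 dpa no member was called. In TCDD fish 0 of 50 passed at 5 against 3 dpa, 4 having an unadjusted p under 0.05, and 0.0114% of all named genes were called. In vehicle fish 0 of 50 passed, 2 having an unadjusted p under 0.05, and 0.375% of all named genes were called. In the blocked fit both counts were also 0.

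Over the whole interval, 5 against 1 dpa, 16 of the 50 were called in TCDD fish, 15 higher and 1 lower, against 8.37% of all named genes called higher. The count was 10 without the TCDD array of letter D at 5 dpa. The 15 were 7 dlx genes and the hox genes hoxc13a, hoxa11b, hoxa10b, hoxa9b, hoxb10a, hoxa9a, hoxb9a and hoxd11a, and hoxb4a was lower by 0.19 from a dim probe set. hoxa9a stood at 6.36, 5.88 and 5.75 at 1 dpa and at 6.76, 6.55 and 6.86 at 5 dpa in TCDD fish, without overlap, and rose by 0.72 (adjusted p = 0.0472). Its other probe set, at a mean of 4.72, gave 0.28 (adjusted p = 0.465). That call held when the array left out was vehicle B or D or TCDD A at 1 dpa, or either letter C array at 3 dpa, and was lost without any 1 of the other 13 arrays (adjusted p up to 0.158). In vehicle fish 14 of the 50 were called at 5 against 1 dpa, all higher, against 7.46% of all named genes called higher. They were 6 dlx genes, hoxc13a, hoxa11b, hoxa10b, hoxa9b and hoxb10a, and the dim hoxa11a (0.73), hoxa4a (0.75) and hoxc12b (0.53). hoxa13b differed by 0.80 in vehicle fish (adjusted p = 0.0807), and by 1.19 in the blocked fit (adjusted p = 0.0209).

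Several calls of dim genes did not hold with 1 array left out. In TCDD fish at 3 against 1 dpa, hoxb9a (0.88) was lost without TCDD B or D at 1 dpa or A or C at 3 dpa (adjusted p up to 0.145), hoxa4a (0.58) without any 1 of the 6 arrays compared (up to 0.136), and hoxb3a (0.93) without TCDD B at 1 dpa or A at 3 dpa (up to 0.0540). At 5 against 1 dpa in TCDD fish, hoxd11a (0.74) was lost without TCDD D at 1 dpa or A or D at 5 dpa (up to 0.141) and hoxb4a without TCDD B or D at 1 dpa or B or D at 5 dpa (up to 0.121). In vehicle fish at 5 against 1 dpa, hoxa11a was lost without vehicle B at 1 dpa or A or C at 5 dpa (up to 0.118), and hoxc12b without vehicle B at 1 dpa or any vehicle array at 5 dpa (up to 0.141). The calls of hoxb9a (2.15-fold, TCDD fish) and hoxa4a (vehicle fish) at 5 against 1 dpa held with each array left out. Fitted on the compared groups alone, both were lost (adjusted p = 0.0543 for hoxb9a and 0.0634 for hoxa4a), and the second probe set of hoxb9a gave 0.50 (adjusted p = 0.0822).

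The 5 expressed hox genes called in no comparison were hoxc11a, hoxc9a, hoxa3a, hoxc8a and hoxc11b. At 5 against 1 dpa in vehicle fish the differences were 0.16 ± 0.25 for hoxc11a, -0.37 ± 0.23 for hoxc9a, 0.49 ± 0.23 for hoxa3a, 0.11 ± 0.22 for hoxc8a and 0.04 ± 0.16 for hoxc11b. For hoxa3a the 5 against 1 dpa difference in TCDD fish was 0.60, with an adjusted p of 0.0756, and of 0.0475 in the blocked fit. With TCDD at 3 dpa hoxc11a stood at 8.02, 8.80 and 8.21, against 7.75, 7.74 and 7.68 in vehicle fish; the groups did not overlap, and the difference of 0.62 ± 0.25 had an adjusted p of 0.354.

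**Figure D3:**
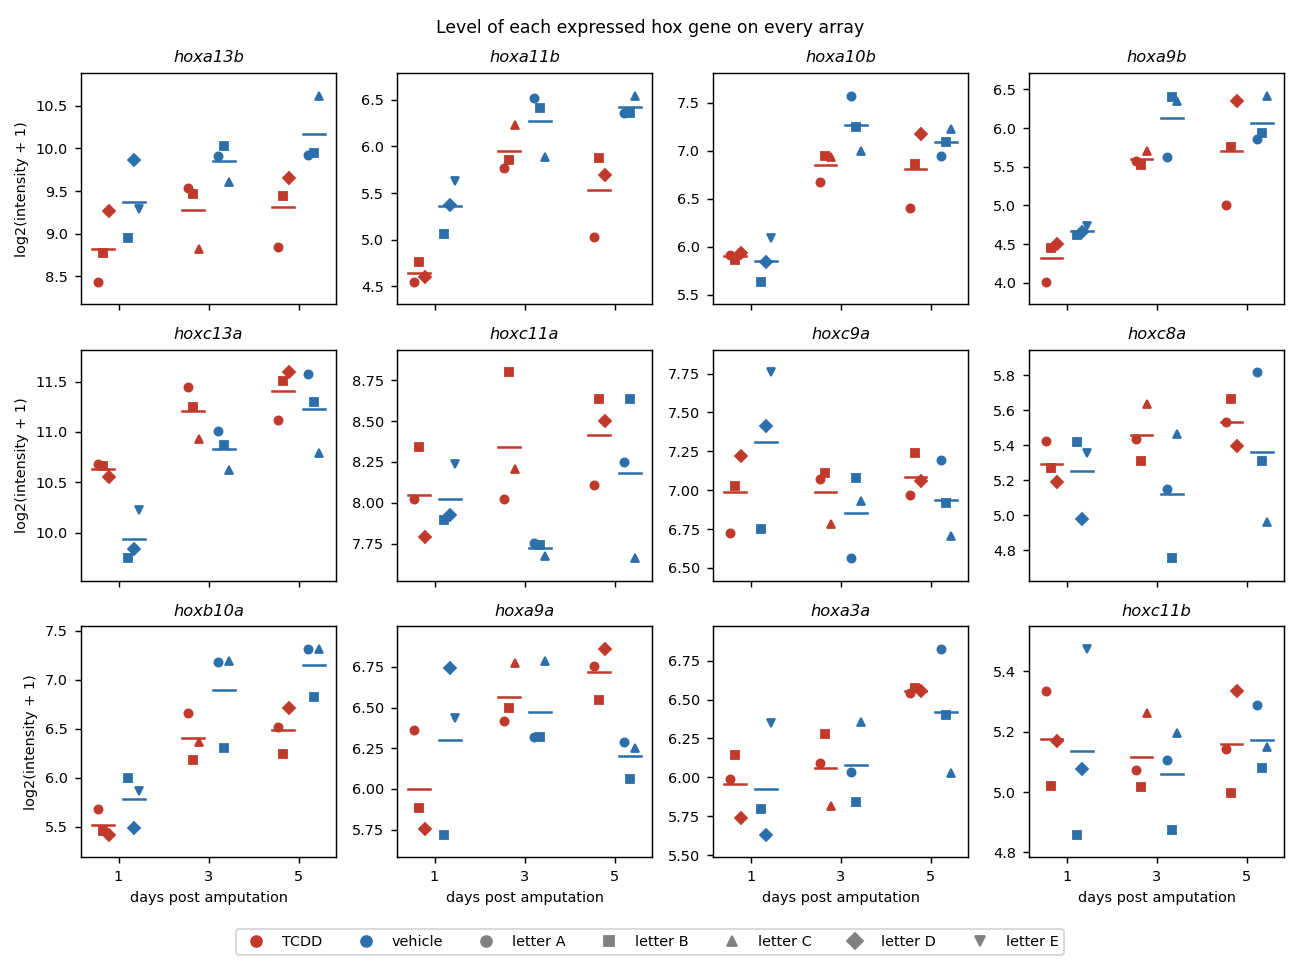
Level of each of the 12 expressed hox genes, log2(intensity + 1), on every array at 1, 3 and 5 dpa, with TCDD (red) left of vehicle (blue); marker shapes give the replicate letter and bars the group mean. The arrays at 3 dpa lie above those at 1 dpa in both treatments for hoxa11b, hoxa10b, hoxa9b, hoxb10a and hoxc13a, and the TCDD means of hoxa13b and hoxa11b lie below the vehicle means on each day.

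The comparison of TCDD with vehicle asks which positional genes differ when regeneration proceeds under dioxin. Averaged over the 3 days, 4 of the 50 were called, against 4.34% of all named genes in either direction: dlx4b higher, and dlx1a, hoxa13b and hoxa11b lower. All 4 were among the 20 expressed members (20%), and 5.34% of the genes on the array with a mean of 5 or more were called; over all 50 members the share was 8%. Without both letter C arrays at 3 dpa the count was 3, hoxa13b being lost. In the blocked fit the count was 7, the additions being hoxc13a and the dim hoxd11a, both higher, and hoxb10a, lower. The median difference over the 50 genes was 0.02, beside 0.03 over all named genes.

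dlx4b was the one member called higher. In TCDD fish it stood at 9.45, 8.55 and 8.58 at 1 dpa, at 9.89, 9.75 and 10.10 at 3 dpa, and at 9.64, 10.04 and 10.45 at 5 dpa. In vehicle fish dlx4b stood at 7.66, 7.42 and 7.54 at 1 dpa, at 9.03, 8.84 and 8.66 at 3 dpa, and at 9.09, 9.29 and 8.56 at 5 dpa. On each of the 3 days every TCDD array was above every vehicle array. TCDD arrays averaged 8.86 ± 0.52 and vehicle arrays 7.54 ± 0.12 (SD, n = 3 each) at 1 dpa, TCDD 9.92 ± 0.18 and vehicle 8.84 ± 0.19 at 3 dpa, and TCDD 10.04 ± 0.41 and vehicle 8.98 ± 0.38 at 5 dpa.

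The mean difference of dlx4b over the days was 1.15 ± 0.15 (2.22-fold; adjusted p = 0.000303), and it stayed called with each of the 18 arrays left out in turn (adjusted p up to 0.000994). It was higher in TCDD in 7 of 7 pairs of the same day and letter, by 0.55 to 1.45. The lack of overlap on each day already fixed that sign, so the count adds no support. Members not called in the mean over days without the block also kept their sign in 7 of 7 pairs: dlx3b, hoxd10a and hoxd11a higher in TCDD, and hoxa9b and hoxb10a lower. By day the dlx4b differences were 1.32 ± 0.25 at 1 dpa (adjusted p = 0.0421), 1.07 ± 0.25 at 3 dpa (adjusted p = 0.0570) and 1.07 ± 0.25 at 5 dpa (adjusted p = 0.0477). In the blocked fit the daily values were not called, with an adjusted p of 0.194 at 1 dpa and 0.0906 at 5 dpa, while the mean over days was (0.00208). The 1 dpa call held when the array left out was letter B at 1 dpa of either treatment, TCDD A or D at 5 dpa, or vehicle B or C at 5 dpa, and was lost without any 1 of the other 12 (up to 0.233). The 5 dpa call held when the array left out was any TCDD array at 1 dpa, TCDD A at 5 dpa or vehicle B at 5 dpa, and was lost without any 1 of the other 13 (up to 0.173). dlx4b also rose with day in both treatments, by 1.19 ± 0.25 in TCDD fish and 1.44 ± 0.25 in vehicle fish at 5 against 1 dpa. Its rise at 3 against 1 dpa in TCDD fish, 1.06, was lost without TCDD B or D at 1 dpa or TCDD C at 3 dpa (adjusted p up to 0.0666).

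Its copy and its neighbour gave other values. dlx4a differed by 0.26 over the days (adjusted p = 0.635), and dlx4b exceeded it by 0.90 in the difference between treatments (exact two-sided permutation of treatment labels within day, p = 0.00150; 0.0105 adjusted over the 7 gene pairs compared). The permutation took no account of the letters, and that gap had the same sign in 7 of 7 letter pairs. dlx3b differed by 0.60 ± 0.31 (adjusted p = 0.385) and was higher in TCDD in 7 of 7 letter pairs, and the gap between dlx4b and dlx3b was 0.56 (exact permutation p = 0.140; adjusted 0.172).

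dlx1a, whose array values are given with its change by day, was lower with TCDD. The TCDD and vehicle arrays overlapped at 1 dpa, and at 3 and 5 dpa every TCDD array was below every vehicle array. TCDD arrays averaged 4.91 ± 0.65 and vehicle arrays 5.31 ± 0.60 at 1 dpa, TCDD 6.76 ± 0.14 and vehicle 7.73 ± 0.35 at 3 dpa, and TCDD 6.87 ± 0.41 and vehicle 8.38 ± 0.35 at 5 dpa (SD, n = 3 each). The difference was -0.96 ± 0.20 over the days (1.94-fold lower; adjusted p = 0.0114), called with each array left out (up to 0.0301), and TCDD was lower in 7 of 7 letter pairs. The sign of the pairs at 3 and 5 dpa was already fixed by the lack of overlap.

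By day dlx1a differed by -0.39 ± 0.34 at 1 dpa (adjusted p = 0.850), -0.97 ± 0.34 at 3 dpa (adjusted p = 0.269) and -1.51 ± 0.34 at 5 dpa (2.85-fold lower; adjusted p = 0.0391). The 5 dpa call was lost without vehicle A or C or any TCDD array at 5 dpa, or without vehicle C or TCDD A or B at 3 dpa (adjusted p up to 0.135). It was also lost when only the compared groups were fitted (adjusted p = 0.0642) and without both letter C arrays (0.0643). Its neighbour dlx2a differed by 0.05 ± 0.15 over the days (adjusted p = 0.928). The gap between dlx1a and dlx2a was -1.01 over the days (exact permutation p = 0.0115; adjusted 0.0403), and 1 of 7 letter pairs ran the other way. By day it was -0.02 at 1 dpa, -0.99 at 3 dpa and -2.01 at 5 dpa.

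hoxa13b and hoxa11b are neighbours at the end of the hoxab cluster and were both lower with TCDD. hoxa11b stood at 4.55, 4.77 and 4.61 at 1 dpa, at 5.77, 5.85 and 6.22 at 3 dpa, and at 5.03, 5.87 and 5.69 at 5 dpa in TCDD fish. In vehicle fish hoxa11b stood at 5.06, 5.38 and 5.63 at 1 dpa, at 6.51, 6.41 and 5.89 at 3 dpa, and at 6.36, 6.36 and 6.54 at 5 dpa. The treatments did not overlap at 1 and 5 dpa and overlapped at 3 dpa, where the pair of letter C ran the other way. The difference over the days was -0.64 ± 0.13 (1.56-fold lower; adjusted p = 0.0107), called with each array left out (up to 0.0276), and TCDD was higher in 1 of 7 letter pairs. With day hoxa11b rose at 5 against 1 dpa by 0.89 ± 0.23 (adjusted p = 0.0132) in TCDD fish, lost without TCDD B or D at 5 dpa (up to 0.0643), and by 1.07 ± 0.23 (adjusted p = 0.00460) in vehicle fish. At 3 against 1 dpa it rose by 1.31 ± 0.23 in TCDD fish and by 0.92 ± 0.23 in vehicle fish, the vehicle call lost without vehicle B or D at 1 dpa or A or B at 3 dpa (up to 0.106). By day the TCDD difference was -0.72 (adjusted p = 0.372), -0.32 (adjusted p = 0.668) and -0.89 (adjusted p = 0.0623) at 1, 3 and 5 dpa.

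hoxa13b, a gene of the group needed for fin rays, is described by array here because it was called, a choice made after its values were seen. It stood at 8.43, 8.77 and 9.26 at 1 dpa, at 9.54, 9.46 and 8.82 at 3 dpa, and at 8.84, 9.45 and 9.65 at 5 dpa in TCDD fish. In vehicle fish hoxa13b stood at 8.95, 9.87 and 9.29 at 1 dpa, at 9.91, 10.03 and 9.61 at 3 dpa, and at 9.93, 9.95 and 10.62 at 5 dpa. The treatments overlapped at 1 dpa and not at 3 or 5 dpa, which fixed the sign of the letter pairs at 3 and 5 dpa. The difference over the days was -0.66 ± 0.17 (1.58-fold lower; adjusted p = 0.0437), with TCDD lower in 7 of 7 letter pairs, by 0.17 to 1.08. That call held only when the array left out was vehicle B or TCDD D at 1 dpa or TCDD D at 5 dpa, and was lost without any 1 of the other 15 (adjusted p up to 0.0942). Without both letter C arrays at 3 dpa the difference was -0.62 (adjusted p = 0.101). At 5 dpa the difference was -0.85 (adjusted p = 0.159), or -1.13 in the blocked fit (adjusted p = 0.0396).

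The other 2 expressed genes of the cluster were not called: hoxa10b differed by -0.21 ± 0.11 (adjusted p = 0.402) and hoxa9b by -0.42 ± 0.17 (adjusted p = 0.224). hoxb10a differed by -0.47 ± 0.14 (adjusted p = 0.0795), and by -0.46 in the blocked fit (adjusted p = 0.0485), with TCDD lower in 7 of 7 letter pairs. Its other probe sets, with means of 5.06 and 2.76, gave smaller differences of -0.22 (adjusted p = 0.410) and -0.13 (adjusted p = 0.395). hoxc13a differed by 0.42 ± 0.11 (adjusted p = 0.0579), or 0.41 in the blocked fit (adjusted p = 0.00985). It was also called with quantile normalization (adjusted p = 0.0419), median centring (0.0332) or dim probe sets left out (0.0430). At 1 dpa hoxc13a differed by 0.70 ± 0.20 (adjusted p = 0.277), or 0.84 with the block (adjusted p = 0.0463). The dim hoxd11a differed by 0.45 ± 0.13 (adjusted p = 0.0712), or 0.50 with the block (adjusted p = 0.0430).

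**Figure D4:**
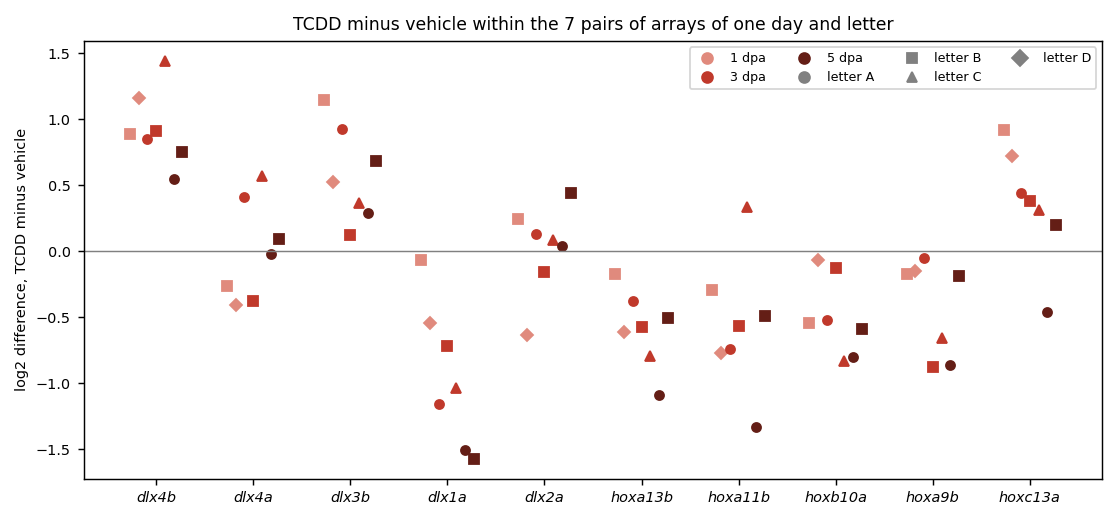
TCDD minus vehicle, on the log2(intensity + 1) scale, within each of the 7 pairs of arrays that share a day (shade) and a letter (marker), for 10 genes. All 7 points lie above 0 for dlx4b (0.55 to 1.45) and dlx3b, and all 7 lie below 0 for dlx1a, hoxa13b, hoxb10a and hoxa9b.

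On single days few members passed. At 1 dpa 1 of 50 was called, dlx4b, against 0.296% of all named genes, and in the blocked fit the single call was hoxc13a. At 3 dpa 0 of 50 were called by limma, with 5 at an unadjusted p under 0.05 and 0 with the block, against 1.43% of all named genes. At 5 dpa 2 of 50 were called, dlx4b higher and dlx1a lower, against 1.91% of all named genes, and with the block the calls were hoxa13b and dlx1a, both lower. No member was called in the test of whether the TCDD difference changed between days, where 0.0455% of all named genes passed and 4 members, none of them expressed, had an unadjusted p under 0.05. The larger differences of dlx1a at 5 than at 1 dpa, and of hoxc13a at 1 than at 5 dpa, are therefore not shown to depend on the day.

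**Figure D5:**
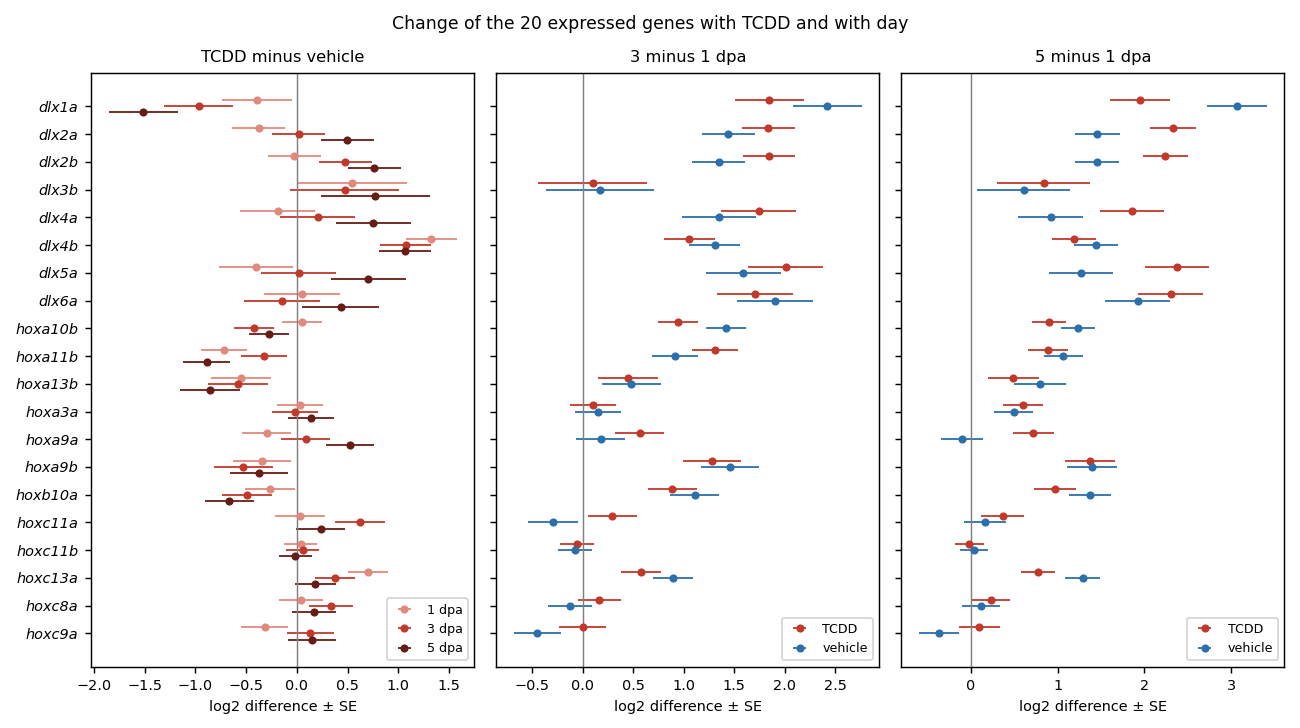
Differences ± SE on the log2(intensity + 1) scale for the 20 expressed genes: TCDD minus vehicle at 1, 3 and 5 dpa (left), 3 minus 1 dpa (middle) and 5 minus 1 dpa (right) in TCDD (red) and vehicle (blue) fish. dlx4b lies right of 0 at each day on the left, dlx1a reaches -1.51 at 5 dpa, and on the right the dlx points lie above 1 except those of dlx3b and that of dlx4a in vehicle fish (0.92).

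Of the 7 gene pairs compared for the TCDD difference, 2 passed after adjustment, dlx4b against dlx4a and dlx1a against dlx2a. The pairs compared were neighbouring dlx genes and duplicate copies, all expressed. Neighbouring hox genes, such as hoxa13b and hoxa11b, were not compared, and the adjusted values depend on how many pairs were chosen. The neighbours dlx5a and dlx6a differed from each other by -0.01 (adjusted p = 0.985), with TCDD differences of 0.11 ± 0.21 and 0.11 ± 0.22. The copies hoxa9b and hoxa9a differed by -0.52 (exact permutation p = 0.0343; adjusted 0.0799), dlx2a and dlx2b by -0.36 (adjusted 0.126), and hoxc11a and hoxc11b by 0.27 (adjusted 0.172).

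Genes that work with or on the hox genes were read beside all named genes, of which few were called for TCDD. The shares of all named genes were 0.296%, 1.43% and 1.91% at 1, 3 and 5 dpa, and 4.34% in the mean over days. At such shares, lists this short would hold few calls whatever their genes. Of the cofactors of the TALE homeobox class (meis, pbx and pknox), which bind DNA together with Hox proteins, 12 of 14 listed were measured, and none was called for TCDD at any day or in the mean. With day, pknox2 rose at 3 against 1 dpa in vehicle fish (0.99 ± 0.26, adjusted p = 0.0367; 0.0721 in the blocked fit and up to 0.183 with 1 array left out), and pbx1a rose at 5 against 1 dpa (1.02 ± 0.23, adjusted p = 0.00683). meis2a, at a mean of 3.56, fell by 0.71 at 5 against 1 dpa in TCDD fish (adjusted p = 0.0386; up to 0.154 with 1 array left out).

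Of the Polycomb and Trithorax proteins, which keep hox clusters silent or active, 18 of 31 listed were measured. phc2a, a Polycomb subunit, was higher with TCDD at 5 dpa (0.81 ± 0.17, adjusted p = 0.0303, up to 0.111 with 1 array left out). No other was called for TCDD without the block, and 1.91% of all named genes were called at 5 dpa. In the mean over days phc2a differed by 0.32 (adjusted p = 0.103, or 0.0341 in the blocked fit). There kdm6ba differed by -0.19 (adjusted p = 0.661, or 0.0365 in the blocked fit). In TCDD fish at 5 against 1 dpa cbx2 (0.92 ± 0.25) and phc1 (0.71 ± 0.20) were higher, and wdr5 (-0.41 ± 0.10) and eed (-0.82 ± 0.23) were lower. All but wdr5 lost the call with 1 array left out (adjusted p up to 0.0926). The 4 of 18 called stand beside 22.6% of all named genes called in either direction. In vehicle fish 4 of 18 were lower and none higher at 5 against 1 dpa, beside 14.3% of all named genes called lower, and 19.2% of those with a mean of 5 or more. They had differences of -1.09 for phc2a, -1.03 for men1, -0.52 for wdr5 and -0.70 for eed, the last with an adjusted p of 0.0440, or 0.147 in the blocked fit.

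Of 42 other fin and limb patterning factors listed, 23 were measured. At 5 dpa 1 of these was called for TCDD, beside 1.91% of all named genes. twist1a, a mesenchymal factor, was lower with TCDD at 5 dpa (-1.52 ± 0.36, adjusted p = 0.0482; up to 0.162 with 1 array left out), and none was called for TCDD in the mean over days. In vehicle fish 4 rose at 3 against 1 dpa: twist3 (2.27 ± 0.44), prrx1b (1.29 ± 0.31; adjusted p up to 0.125 with 1 array left out), gli3, a transcription factor of hedgehog signalling (0.97 ± 0.19), and evx1 (0.89 ± 0.23; adjusted p = 0.0321, or 0.0981 in the blocked fit). evx1, needed for the joints of zebrafish fin rays, is the neighbour of hoxa13a. The 4 of 23 that rose at 3 against 1 dpa in vehicle fish stand beside 3.99% of all named genes called higher. At 5 against 1 dpa 4 of the 23 rose in TCDD fish and 9 in vehicle fish, none falling. Beside these, 8.37% and 7.46% of all named genes were called higher in TCDD and in vehicle fish.

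Marker genes of the cell types in a fin were read beside these changes. Of 12 listed genes of ray bone cells 9 were measured, and 4 were lower with TCDD over the days: runx2a, a regulator of bone cells, by -1.05 ± 0.14, the collagen gene col10a1a by -1.32 ± 0.28, ifitm5 by -1.98 ± 0.35 and the matrix gene sparc by -0.50 ± 0.07. The 4 of 9 stand beside 2.48% of all named genes called lower, and 3.01% of those with a mean of 5 or more. The other markers were not called in the mean over days. The median over the 9 was -0.50, beside 0.03 over all named genes. By day it was -0.72, -0.19 and -0.60 at 1, 3 and 5 dpa. The defining genes sp7 and runx2b, and ihha, had means under 5. The summed bone marker intensity, as log2, was 12.43 to 12.68 in TCDD and 12.98 to 13.47 in vehicle arrays at 1 dpa, 13.91 to 14.22 in TCDD and 14.86 to 15.10 in vehicle arrays at 3 dpa, and 14.50 to 15.08 in TCDD and 15.33 to 15.46 in vehicle arrays at 5 dpa. It was thus lower with TCDD on each day and higher at later days in both treatments. On their group means so were dlx1a, hoxa13b and hoxa11b, apart from hoxa11b at 5 against 3 dpa in TCDD fish. The same held for hoxb10a and hoxa9b, not called for TCDD without the block, apart from hoxa9b at 5 against 3 dpa in vehicle fish. No other expressed member had a lower mean with TCDD on all 3 days. The part of bone cell number in those differences was not tested.

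Markers of the epidermis, all 14 measured and all with a mean of 5 or more, held a summed log2 intensity of 16.65 to 16.97 on the 18 arrays, and none was called for TCDD. With day krt4 and krt18a.1 were lower at 3 against 1 dpa in both treatments, although in vehicle fish not in the blocked fit (adjusted p = 0.0999 and 0.0766). These 2 of 14 stand beside 2.71% of all named genes called lower in vehicle fish and 8.07% in TCDD fish. At 5 against 1 dpa 3 of the 14 were lower and 1 higher in vehicle fish, and 2 were lower in TCDD fish. Beside these, 14.3% and 14.2% of all named genes were called lower in vehicle and in TCDD fish. Of the 11 listed nerve and glia genes 6 were measured and none was called in a comparison of treatments or of days. Of the 11 skeletal muscle genes 8 were measured, 7 of them with a mean under 5, and none was called for TCDD. With day, 1 muscle gene was called higher and 1 lower, both at 5 against 1 dpa in TCDD fish. There 22.6% of all named genes were called in either direction. The median intensity per array lay between 75.1 and 84.1.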

How the data were processed

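The authors deposited 1 linear intensity per probe set and array, and the submitters' processing notes name GCRMA, a background correction and summary method, with no version. Probe sets were named from the platform annotation, and all 50 symbols were found by Entrez ID in RefSeq's gene table (assembly GRCz12tu), which also gave neighbouring genes. Of 15617 probe sets 115 controls were left out; 10795 have 1 symbol and 135 several, which were not used for names. Here log2(intensity + 1) was fitted with limma 3.58.1 (R 4.3.3; lmFit, contrasts.fit, eBayes with trend) on 6 group means over 18 arrays. P-values were two-sided and adjusted by Benjamini-Hochberg over 15502 probe sets. The pseudocount understates changes of dim genes. With 3 pools a group, precision is limited by the number of arrays.

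Arrays sharing a day and letter deviated together (7 of 7 treatment pairs, correlation of deviations from group means 0.20 to 0.70, median 0.57), whereas 2 of 20 pairs of different letters exceeded 0.1 (median -0.17). What a letter marks is not given in the labels, and the pairing comes from these correlations. They were taken within days. Whether a letter has the same effect on different days, as the blocked fit assumes, was not tested. Gene pairs were compared by exact permutation of treatment labels within days (8000 arrangements, smallest possible p 0.00025). Labels were exchanged over all arrays of a day, so these p-values take no account of the deviations shared within a letter. The fit was tested on simulated data with independent errors between arrays, and so without the deviations shared within a letter. The blocked fit was not tested in this way.

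The members and lists were chosen with earlier results of these data known. Every member is named; array values are given for the 12 expressed members with the smallest adjusted p among those that passed a comparison, and for those with the largest TCDD difference. After their values were seen, those of hoxa13b, hoxa9a and hoxc11a (in part) and of dlx3b, the remaining dlx gene, were added. Genes of other lists were named, up to 4 a list, at a mean of 5 or more. They had the smallest adjusted p in the mean TCDD or vehicle 3 against 1 dpa comparison. The genes pbx1a, meis2a, phc2a, men1, cbx2, phc1, wdr5, eed and twist1a were named because they were called elsewhere. Not every listed gene called elsewhere was named: tbx15, tbx18, prrx1a, lhx9 and sp8b, for example, were only counted. Lastly, kdm6ba was named for its blocked TCDD value. Sequences were not used here.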

Additional observations from a re-analysis of the deposited data

How the results depend on the processing

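Expressed genes numbered 20, also with quantile normalization, median centring or 1 array left out; they numbered 15 with the dimmest probe set of each gene, and 28 with a pseudocount of 16, which lowers the intensity that a level of 5 stands for. For the TCDD comparison at 1 dpa the count of members called was 1, and 0 with a pseudocount of 16, quantile normalization, a constant prior, only the groups compared, or without both letter C arrays at 3 dpa. At 3 dpa it was 0, and 1 without dim probe sets. At 5 dpa it was 2, and 1 with quantile normalization, median centring or a constant prior, and 0 with only the groups compared or without the letter C arrays. In the mean over days it was 4, and 7 with the replicate block, 5 with quantile normalization, median centring or without dim probe sets, and 3 without the letter C arrays. For TCDD fish at 3 against 1 dpa it was 14, and 9 with only the groups compared. For vehicle fish it was 12, and 3 with only the groups compared and 7 without the letter C arrays. With 1 array left out in turn the counts were 0 to 1, 0 to 1 and 0 to 2 for TCDD at 1, 3 and 5 dpa, 3 to 4 for the mean, 9 to 15 and 10 to 16 for TCDD fish at 3 and 5 against 1 dpa, 7 to 13 and 11 to 15 for vehicle fish, and 0 for both 5 against 3 dpa comparisons and for the change of the TCDD difference between days. With the dimmest probe set of each gene, hoxa10b turned to -0.0065 (adjusted p = 0.955) and -0.064 (0.251) in TCDD fish at 3 and 5 against 1 dpa, and hoxb10a to -0.12 (0.505) at 5 against 1 dpa. Over 74 gene and comparison pairs and 1980 alternative values, 1756 kept their direction and side of the threshold, 194 lost it, 27 gained it and these 3 reversed. The dimmest probe set gave 63 of the values kept, most of them fixed in advance because genes with 1 set do not change there. Where a called gene had several sets, that setting lost (8) or reversed (3) every call made without the block. Fitted on the compared groups alone, 26 calls among the 74 pairs were lost and 1 was gained. Without both letter C arrays 13 were lost. The call of hoxa9a was lost with quantile normalization (adjusted p = 0.0867), median centring (0.0646) or a pseudocount of 16 (0.0506), that of hoxc12b with quantile normalization (0.101), and that of hoxb4a with quantile normalization (0.455) or a constant prior (0.0846). The block changed no call of the members other than those given with it above and dim hoxa4a in TCDD fish at 5 against 1 dpa (0.47, adjusted p = 0.0615; 0.0367 with the block). The cause of these shifts was not tested. Dim hox genes carry little information on change.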
